A study of Homo sapiens with 6 samples.

Results

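The genes described here are 10 feedback and output genes of the ERK branch of MAPK signalling: the Sprouty and SPRED genes SPRY1, SPRY2, SPRY4 and SPRED2, the dual-specificity phosphatase genes DUSP4, DUSP5 and DUSP6, the ETS factor genes ETV4 and ETV5, and the early response gene IER3. They were taken as every probe set of the array whose only gene symbol in the platform annotation is one of these names, which gave 17 probe sets for 10 genes, out of 19065 named probe sets and 11963 genes in all. The arrays compare LCCTam, a tamoxifen-resistant variant of a breast cancer line, with its parent SUM44, which came from an invasive lobular carcinoma labelled positive for estrogen and progesterone receptors. LCCTam was sampled at passages 8, 9 and 10 and kept in medium with 500 nM 4-hydroxytamoxifen, the active tamoxifen metabolite, and SUM44 was sampled at passages 74, 75 and 76 in the same kind of medium, with no drug given in its labels. Resistance, presence of the drug and passage number therefore cannot be told apart. Each passage gave total RNA for 1 array, so there are 3 arrays per line, numbered as replicates 1 to 3 in the order of the passages. The labels do not say whether LCCTam is a single clone or whether the passages were independent cultures, so the errors below describe the spread between these samples, which may be technical.

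Growth factor receptors such as the FGF receptors and RET activate RAS, which starts a relay of the kinases RAF, MEK and ERK. Active ERK raises transcription of genes that damp the same relay: Sprouty and SPRED proteins hold back the steps around RAS and RAF, and DUSP phosphatases remove the activating phosphates from ERK itself. The ETS factors ETV4 and ETV5 are induced by the pathway and carry its output to further genes. Levels of DUSP6, SPRY4 and ETV4 transcripts are widely used as a readout of ERK activity in tumour cells. ERK activity itself was not measured here, and a link between receptor levels and these genes was not tested.

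Values are log2 expression levels made with RMA, so a difference of 1 is a doubling. The deposited values hold no detection calls, and the level that means no expression is unknown. Levels of different probe sets are set side by side only roughly, as percentiles or as bright or dim. The median level was 5.92 to 5.97 on the 6 arrays, while the 75th percentile was 7.68, 7.71 and 7.50 in LCCTam, all below the 7.78, 7.73 and 7.73 in SUM44. LCCTam replicate 3 stood apart from the other 5 arrays in its RNA quality controls, with a 3' minus 5' difference of 1.92 for actin, against 0.90 to 1.15 on the others, and 0.61 for GAPDH, against 0.09 to 0.31. The epithelial genes KRT8, KRT18, KRT19, EPCAM and GATA3 lay at percentile 98.0 or higher among named probe sets in both lines. ESR1 and TFF3 lay at 97.5 and 97.9 in LCCTam and 99.5 and 97.6 in SUM44. The epithelial markers CDH1, CLDN4 and MUC1 lay lower, at 74.4, 80.7 and 66.6 in LCCTam and 74.5, 86.6 and 82.3 in SUM44. Between the lines, 2 of 10 epithelial markers, ESR1 and MUC1, were lower in LCCTam (median difference of the list -0.27). The MUC1 call was lost after quantile normalization (adjusted p = 0.0501) and on leaving out any 1 array but SUM44 replicate 3, and the count of lower epithelial markers was 3 without SUM44 replicate 3, 1 without any other single array and 5 with unequal array weights. The leukocyte genes PTPRC, CD14 and LYZ lay at percentiles 25.9, 36.0 and 3.8 in LCCTam and 22.7, 32.8 and 3.8 in SUM44. The leukocyte genes CD3D and CD3E lay near the middle, at 52.0 and 53.5 in LCCTam and 49.8 and 53.5 in SUM44. Of 8 leukocyte and endothelial markers measured 0 passed the limma test below, 0 also at an unadjusted p under 0.05. Of 10 fibroblast markers 1, COL3A1, was lower in LCCTam (-4.42), by its _s_at and _x_at probe sets alone, and the count was 2 without SUM44 replicate 1. The list's median difference was -0.08, and the summed log2 level of that list was 54.3 to 55.1 in LCCTam, against 59.7 to 61.3 in SUM44, a gap made up mostly of COL3A1 and of FN1 (-1.10, adjusted p = 0.112). Beside these counts of markers, 5.83% of all genes passed as lower in LCCTam, and 16.3% with unequal array weights. The part of these markers in the results below was not tested. After quantile normalization, which gives every array the same 75th percentile, the same 4 of the 10 genes passed as without it.

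SPRY4, DUSP6 and IER3 rose in LCCTam and SPRY1 fell, while the other 6 genes did not pass the test. By limma with Benjamini-Hochberg adjustment over all 11963 genes, with an adjusted p under 0.05 counted as passing, 4 of 10 genes passed. Among all genes 7.92% passed, 2.09% higher in LCCTam and 5.83% lower, while among the 10 genes 3 were higher and 1 lower. The 10 genes were chosen with earlier results of these data known, so these counts beside the shares are not a test of the set. The median difference, LCCTam minus SUM44, was 0.14 over the 10 genes and 0.017 over all genes. LCCTam and SUM44 ranges were separate for 6 of the 10 genes, 5 of them higher and 1 lower in LCCTam, where 29.8% of all genes had separate ranges, 13.2% higher and 16.6% lower. Read one probe set at a time in a fit of all named probe sets, 5 of 17 passed, 4 higher and 1 lower, and 7.37% of all probe sets passed, 1.72% higher and 5.65% lower. In bulk RNA, fewer cells that express a gene and less RNA per cell cannot be told apart.

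**Figure D1:**
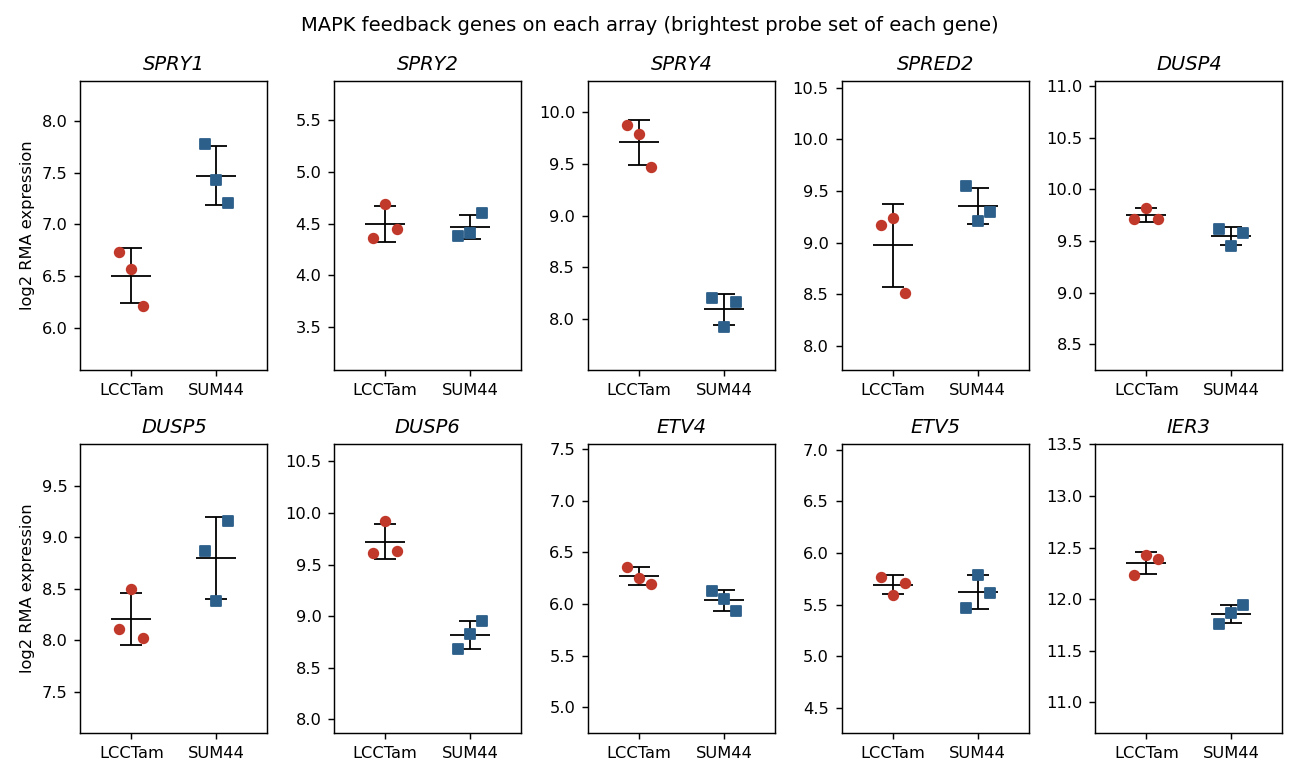
Log2 RMA expression of the 10 genes, 1 panel per gene, with LCCTam (circles) left of SUM44 (squares), 1 point per array from replicate 1 to 3, and the mean with SD as lines; every panel spans the same log2 range. All LCCTam points lie above all SUM44 points for SPRY4, DUSP6 and IER3 and below them for SPRY1, while for SPRY2, SPRED2, DUSP5 and ETV5 the lines overlap.

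Among the Sprouty and SPRED genes, SPRY4 and SPRY1 moved in opposite directions. SPRY4, which encodes an inhibitor of receptor tyrosine kinase signalling to ERK, was at 9.88, 9.79 and 9.47 in LCCTam, against 8.20, 7.92 and 8.16 in SUM44. The lowest LCCTam array was 1.27 above the highest SUM44 array. SPRY4 averaged 9.71 ± 0.22 in LCCTam and 8.09 ± 0.15 in SUM44 (SD, n = 3 each), a difference of 1.62 (SE 0.14, 95% interval 1.30 to 1.94, limma adjusted p = 0.00137), or 3.07-fold. It was the 1 gene of the 10 that passed with a change of at least 2-fold. Its single probe set carries the suffix _s_at, which marks probes shared between transcripts.

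SPRY1, a Sprouty gene that restrains RET signalling in the developing kidney of the mouse, was at 6.73, 6.57 and 6.21 in LCCTam, against 7.78, 7.43 and 7.21 in SUM44. Every LCCTam array was lower than every SUM44 array, by at least 0.47. The means were 6.50 ± 0.27 in LCCTam and 7.47 ± 0.29 in SUM44 (SD, n = 3 each), a difference of -0.97 (SE 0.19, 95% interval -1.41 to -0.53, limma adjusted p = 0.0248), or 1.96-fold lower. The call was lost without LCCTam replicate 1 (adjusted p = 0.0543), without LCCTam replicate 2 (0.0754) and without SUM44 replicate 2 (0.102), where the difference was between -1.08 and -0.99.

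SPRY2, another Sprouty inhibitor, was dim in both lines, at 4.36, 4.69 and 4.45 in LCCTam and 4.38, 4.41 and 4.60 in SUM44. Its level lay at percentile 17.7 of named probe sets in LCCTam and 17.2 in SUM44, so whether it was expressed at all cannot be read from these values. The difference of 0.03 had a 95% interval of -0.24 to 0.31 (limma adjusted p = 0.898). SPRED2, a Sprouty-related protein that blocks activation of RAF by RAS, was read by 3 probe sets, of which the brightest was at 9.17, 9.24 and 8.51 in LCCTam, against 9.55, 9.21 and 9.30 in SUM44. The lines overlapped, and the low LCCTam value came from replicate 3. The SPRED2 difference was -0.38 (95% interval -0.87 to 0.10, limma adjusted p = 0.319), and -0.15 without LCCTam replicate 3. The other 2 SPRED2 probe sets were dim, with differences of -0.03 and 0.01.

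Of the 3 phosphatase genes DUSP6 rose, and DUSP4 and DUSP5 did not pass. DUSP6 encodes a cytoplasmic phosphatase with high selectivity for ERK, and 3 probe sets read it. The brightest was at 9.61, 9.92 and 9.63 in LCCTam, against 8.68, 8.83 and 8.95 in SUM44. It averaged 9.72 ± 0.17 in LCCTam and 8.82 ± 0.13 in SUM44 (SD, n = 3 each), a difference of 0.90 (SE 0.12, 95% interval 0.62 to 1.19, limma adjusted p = 0.00700), or 1.87-fold. The second probe set was at 7.95, 8.36 and 8.05 in LCCTam, against 7.22, 6.85 and 7.35 in SUM44, a difference of 0.98 (adjusted p = 0.0170 over all named probe sets). The third was at 8.25, 8.67 and 8.03 in LCCTam, against 7.61, 7.36 and 7.74 in SUM44, a difference of 0.74 that did not pass (adjusted p = 0.0540). All LCCTam values lay above all SUM44 values on each of the 3 DUSP6 probe sets.

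DUSP4, a nuclear phosphatase of ERK and related kinases, was at 9.71, 9.82 and 9.71 in LCCTam, against 9.62, 9.45 and 9.58 in SUM44. The lines did not overlap, but the gap between them was 0.09. The DUSP4 difference of 0.20 (95% interval -0.01 to 0.41) did not pass (limma adjusted p = 0.236), and passed with unequal array weights (0.23, adjusted p = 0.0340), where 32.1% of all genes passed, 15.9% higher and 16.3% lower. Its second probe set differed by 0.26, with overlapping lines. DUSP5, a nuclear phosphatase specific for ERK, was at 8.11, 8.50 and 8.02 in LCCTam, against 8.87, 8.38 and 9.16 in SUM44. SUM44 replicate 2 lay within the LCCTam range, and the SUM44 SD of 0.39 was the largest among the 10 genes in that line. The DUSP5 difference was -0.59 (95% interval -1.10 to -0.08, unadjusted p = 0.0289), which did not pass after adjustment (limma adjusted p = 0.157).

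**Figure D2:**
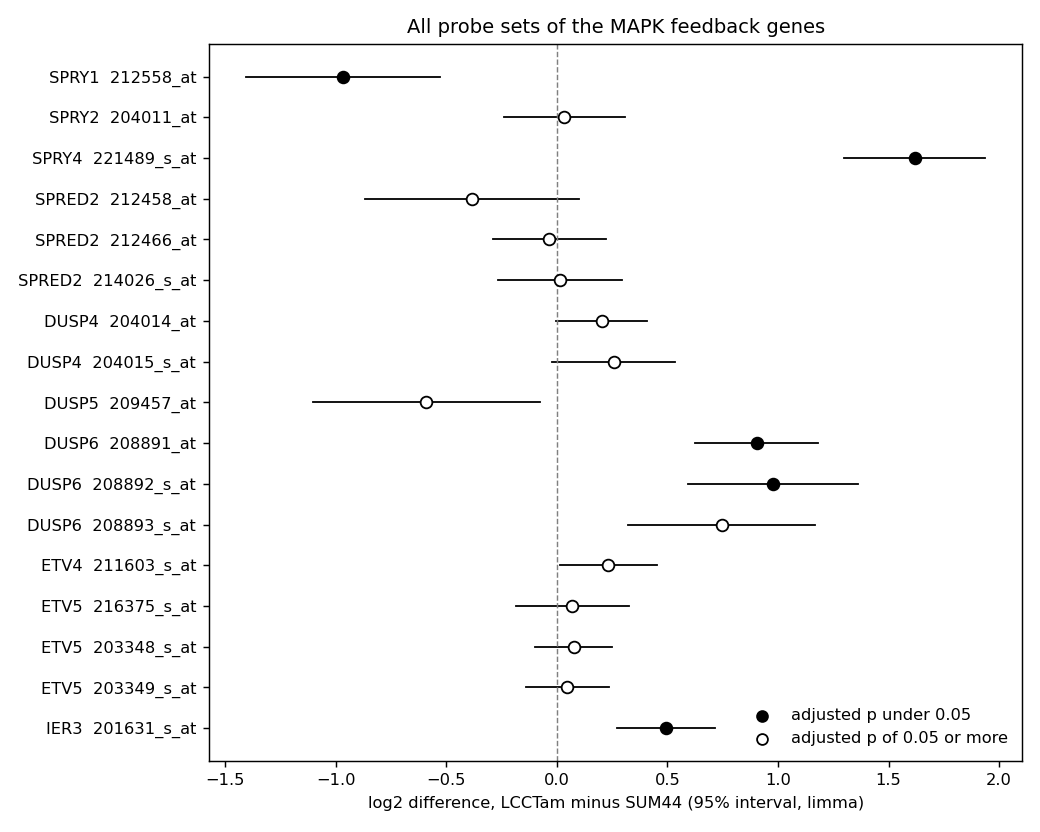
Log2 difference, LCCTam minus SUM44, of each of the 17 probe sets with its 95% interval from the fit of all named probe sets; filled points passed an adjusted p of 0.05. The 3 DUSP6 probe sets lie at 0.74 to 0.98 and SPRY4 at 1.62, SPRY1 lies at -0.97, and the 3 ETV5 probe sets lie at 0.05 to 0.08.

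The promoter-side sequence of SPRY4, DUSP6 and SPRY1, the 3 genes with the largest passing differences, is shown so that the gene that fell can be read beside those that rose. Start sites from RefSeq's table (GRCh38.p14) were used for 5 of the 10 genes, 9 in all. Any starts of the 10 genes on an excluded chromosome were left out, so these are not counts of all starts in the table. Each line gives the 250 bases before the start, 5′ to 3′ on the gene's strand, and SPRY1 has 2 starts. Capitals mark CCGGAA, a core of ETS sites, TGANTCA, the AP-1 site, TGACG, a half-site for CREB-type factors, and GGGCGG, the GC box, each searched on both strands, so a match on the other strand is printed as its reverse complement. No 2 matches overlap in these windows.
SPRY4 (chr5:142324248-142324497, minus strand): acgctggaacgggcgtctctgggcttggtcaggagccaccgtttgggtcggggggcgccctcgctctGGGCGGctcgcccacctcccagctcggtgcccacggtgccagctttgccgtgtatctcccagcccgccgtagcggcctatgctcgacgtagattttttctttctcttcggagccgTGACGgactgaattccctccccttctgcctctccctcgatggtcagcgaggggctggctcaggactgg
DUSP6 (chr12:89352502-89352751, minus strand): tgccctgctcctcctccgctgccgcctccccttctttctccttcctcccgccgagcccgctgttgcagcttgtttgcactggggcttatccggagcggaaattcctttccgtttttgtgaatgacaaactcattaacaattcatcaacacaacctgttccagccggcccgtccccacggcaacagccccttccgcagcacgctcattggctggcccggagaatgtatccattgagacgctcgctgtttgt
SPRY1, first start (chr4:123396545-123396794, plus strand): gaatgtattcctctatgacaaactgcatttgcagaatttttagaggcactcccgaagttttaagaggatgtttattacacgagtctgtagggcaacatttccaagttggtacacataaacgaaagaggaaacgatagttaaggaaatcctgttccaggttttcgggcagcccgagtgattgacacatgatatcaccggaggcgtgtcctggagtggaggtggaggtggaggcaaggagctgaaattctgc
SPRY1, second start (chr4:123398136-123398385, plus strand): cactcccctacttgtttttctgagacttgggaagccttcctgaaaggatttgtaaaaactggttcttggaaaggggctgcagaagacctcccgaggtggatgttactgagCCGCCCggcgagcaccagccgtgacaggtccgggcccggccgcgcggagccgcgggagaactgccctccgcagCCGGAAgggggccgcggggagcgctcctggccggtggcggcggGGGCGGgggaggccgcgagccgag

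The SPRY4 window held a TGACG match 68 bases before the start and a GC box 183 bases before it. The DUSP6 window and the first SPRY1 window held 0 matches to the 4 motifs. The second SPRY1 window held CCGGAA 67 bases before the start and GC boxes 24 and 140 bases before it. Over the 9 windows of the 5 genes, 2 held CCGGAA, 0 held TGANTCA, 2 held TGACG and 3 held GGGCGG, and these motifs, in the same order, were in 14.5%, 6.57%, 21.2% and 42.6% of all 35116 windows that RefSeq's list gave. No chromosome was left out of those 35116 windows. The content of G and C was 65.6% for SPRY4, 57.2% for DUSP6, and 45.6% and 68.0% for the first and second SPRY1 windows. A match is a string of letters, and neither binding nor use of these starts was measured here.

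The ETS factor genes did not pass. ETV4, a PEA3-type ETS factor, was at 6.36, 6.25 and 6.19 in LCCTam, against 6.13, 6.05 and 5.93 in SUM44. The lines did not overlap, with a gap of 0.06. The ETV4 difference of 0.23 had a 95% interval of 0.01 to 0.46 (unadjusted p = 0.0434, limma adjusted p = 0.200). It passed with unequal array weights (0.30, adjusted p = 0.0122), where 32.1% of all genes passed, 15.9% of them all as higher. The related ETV5 was read by 3 probe sets, the brightest at 5.77, 5.59 and 5.71 in LCCTam, against 5.47, 5.79 and 5.61 in SUM44. The ETV5 difference was 0.07 (95% interval -0.19 to 0.33, limma adjusted p = 0.759), and the other 2 probe sets differed by 0.08 and 0.05. The upper bound of the ETV5 interval is below the differences of SPRY4 and DUSP6, so a change of their size was not seen for ETV5 on this probe set. It lay at percentile 43.5 in LCCTam and 41.9 in SUM44, so whether ETV5 was expressed cannot be read from these values.

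IER3, an early response gene whose protein is phosphorylated by ERK and promotes cell survival, was among the brightest probe sets of the array, at percentile 99.2 in LCCTam and 98.8 in SUM44. It was at 12.23, 12.43 and 12.39 in LCCTam, against 11.76, 11.87 and 11.94 in SUM44, with the lowest LCCTam array 0.29 above the highest SUM44 array. The means were 12.35 ± 0.11 in LCCTam and 11.86 ± 0.09 in SUM44 (SD, n = 3 each), a difference of 0.49 (SE 0.10, 95% interval 0.27 to 0.72, limma adjusted p = 0.0262), or 1.41-fold. The IER3 call depended on single arrays. It was lost without LCCTam replicate 1 (adjusted p = 0.0578), LCCTam replicate 2 (0.0863), SUM44 replicate 1 (0.0748), SUM44 replicate 2 (0.113) and SUM44 replicate 3 (0.0530), and held without LCCTam replicate 3 (0.0334). The difference was between 0.45 and 0.55 in these 6 fits.

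**Figure D3:**
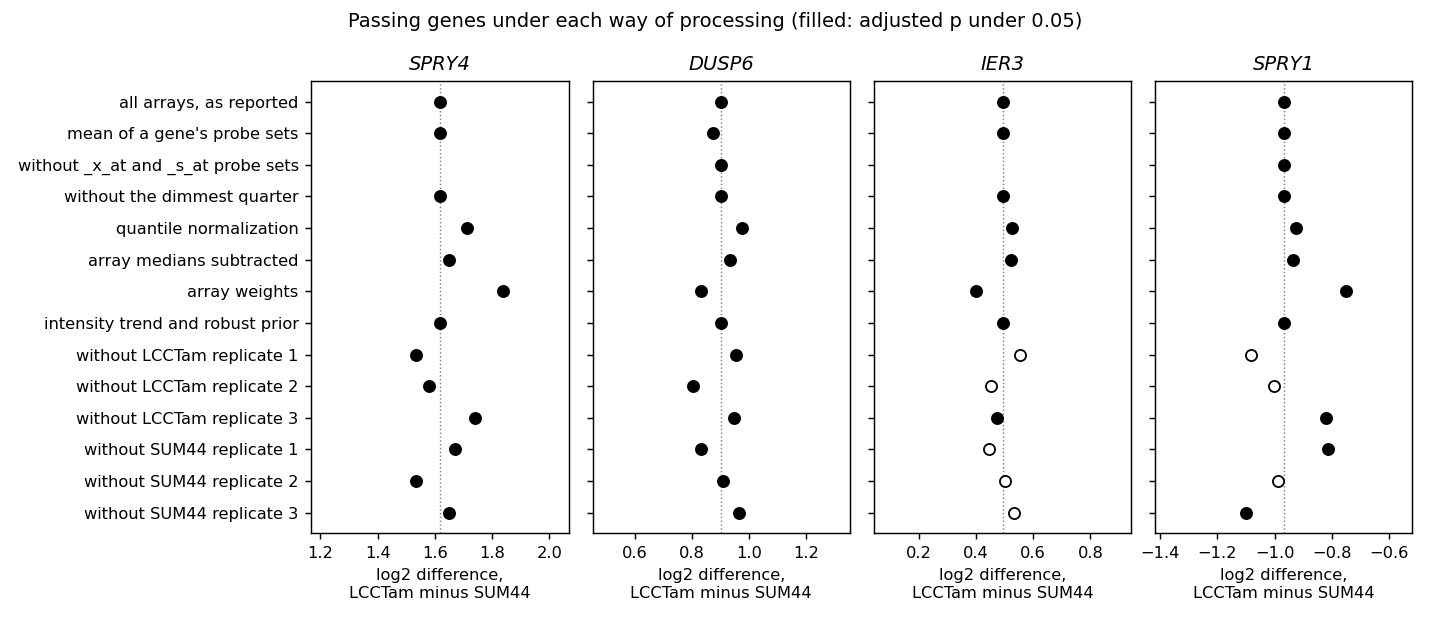
Log2 difference, LCCTam minus SUM44, of the 4 genes that passed, under each way of processing (rows) with all arrays or with 1 array left out; filled points passed an adjusted p of 0.05, and a missing point means that the gene has no probe set left. SPRY4 and DUSP6 passed wherever they could be fitted, IER3 lost its call on leaving out 5 of the 6 arrays and SPRY1 on leaving out 3, and no difference changed sign.

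SPRY4 and DUSP6 passed with each of the 6 arrays left out in turn. The SPRY4 difference was between 1.53 and 1.74 (adjusted p 0.00152 to 0.0126) and the DUSP6 difference between 0.80 and 0.97 (adjusted p 0.00936 to 0.0458). The number of the 10 genes that passed was 4 without LCCTam replicate 3 and 2 without LCCTam replicate 1, LCCTam replicate 2 or SUM44 replicate 2. Without SUM44 replicate 1 or 3 it was 3.

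Among receptor genes upstream of the relay, FGFR4 and RET also rose in LCCTam. FGFR4 was at 10.64, 10.33 and 10.10 in LCCTam, against 8.37, 8.40 and 8.28 in SUM44, a difference of 2.01 (limma adjusted p = 0.000704). RET was at 10.76, 11.16 and 11.01 in LCCTam, against 8.92, 8.80 and 8.46 in SUM44, a difference of 2.25 (limma adjusted p = 0.000686). Of 16 receptor genes measured 2 rose and 2 fell, with a median difference of 0.01, where 2.09% of all genes rose and 5.83% fell. With unequal array weights 3 were higher and 4 lower, against 15.9% and 16.3% of all genes. The genes that fell were IGF1R, the IGF receptor gene, at -1.32 (limma adjusted p = 0.00455), and GFRA1, which encodes a coreceptor of RET, at -0.39 (0.0326). GFRA1 was dim, and its call was lost on leaving out any 1 array but LCCTam replicate 3.

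Of 28 measured genes of the relay, its adaptors and regulators, and kinases that ERK activates, 2 rose and 4 fell. Among all genes 2.09% rose and 5.83% fell. The other 22 of the 28 missed the threshold (median difference -0.03). PTPN11, which encodes the phosphatase SHP2 that passes receptor signals to RAS, was at 9.14, 9.24 and 9.78 in LCCTam, against 10.31, 10.32 and 10.20 in SUM44. The PTPN11 difference was -0.89 (limma adjusted p = 0.0236), and 3 of its 5 probe sets passed, all 3 lower. SOS2, which loads RAS with GTP, differed by -0.58 (2 of 5 probe sets passed). The SOS2 call was lost with the mean of its probe sets (-0.21, adjusted p = 0.142) and after quantile normalization (-0.50, adjusted p = 0.0833). LAMTOR3, a scaffold of MEK and ERK, differed by -0.57. RPS6KA1, a kinase activated by ERK, averaged 6.96 ± 0.19 in LCCTam and 6.34 ± 0.11 in SUM44 (SD, n = 3 each), a difference of 0.62 (limma adjusted p = 0.0268). The other genes that passed were GRB2, a receptor adaptor, at 0.49 and RASGRP1, a RAS activator, at -0.53. RASGRP1 was dim, at percentile 6.7 in LCCTam and 17.3 in SUM44, so whether it was expressed cannot be read from these values. With the dimmest probe sets removed, 2 genes of this list were higher and 3 lower.

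The counts of 2 higher and 4 lower genes in this list depended on single arrays. They were 3 higher and 4 lower without LCCTam replicate 3, 0 and 2 without SUM44 replicate 1, and 1 and 2 without SUM44 replicate 3. With unequal array weights 7 were higher and 7 lower, or 14 of 28, against 32.1% of all genes. The counts were 0 and 1 without LCCTam replicate 2 and 0 and 0 without LCCTam replicate 1 or SUM44 replicate 2. PTPN11 and SOS2 each passed without 1 of the 6 arrays, RPS6KA1 without 2 and LAMTOR3 without 4.

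Among relatives of the feedback genes and other genes known to rise with ERK signalling, 0 passed as higher in LCCTam. Among all genes 2.09% passed as higher and 5.83% as lower, so few passing genes would be looked for in lists of this size. Of 9 other DUSP genes measured 0 passed in limma (1 at an unadjusted p under 0.05), with a median difference of -0.08. The one with the largest difference was DUSP22, a phosphatase linked to JNK signalling, at 8.56 ± 0.17 in LCCTam and 8.09 ± 0.18 in SUM44 (SD, n = 3 each; difference 0.48, adjusted p = 0.0765). DUSP22 passed without LCCTam replicate 3 (0.57, adjusted p = 0.0380), after quantile normalization (0.58, adjusted p = 0.0232) and with unequal array weights (0.69, adjusted p = 0.00146). Of 23 other ETS genes 0 passed in limma (5 at an unadjusted p under 0.05), with a median of -0.04, and ELF2 had the largest difference, -0.52 (adjusted p = 0.110). Without LCCTam replicate 2, 1 other ETS gene passed, higher, with an intensity trend and robust prior 1 passed, lower, and with unequal array weights 3 were higher and 5 lower, a share near the 32.1% of all genes.

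Of 31 other ERK-induced genes 0 rose and 2 fell, where 2.09% of all genes rose and 5.83% fell. The other 29 missed the threshold (median difference -0.08). CCND1, which encodes the G1 cyclin D1, was at 9.73, 9.87 and 9.74 in LCCTam, against 10.35, 10.51 and 10.76 in SUM44 (difference -0.76, limma adjusted p = 0.0131), and both of its probe sets passed. EGR1, an immediate-early transcription factor, was at 4.91, 5.30 and 5.29 in LCCTam, against 6.03, 5.81 and 5.90 in SUM44 (difference -0.74, limma adjusted p = 0.0184). This EGR1 probe set lay at percentile 32.3 in LCCTam and 47.3 in SUM44. The other EGR1 probe set, at percentiles 33.1 and 36.3, differed by -0.13 with overlapping lines, and the mean of both by -0.44 (adjusted p = 0.0213). CCND1 was not called without LCCTam replicate 1 (adjusted p = 0.0645) or SUM44 replicate 2 (0.0684), nor EGR1 without SUM44 replicate 2 (0.0689) or SUM44 replicate 3 (0.0501). With unequal array weights 4 genes of this list were higher and 5 lower, again near the share of all genes.

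**Figure D4:**
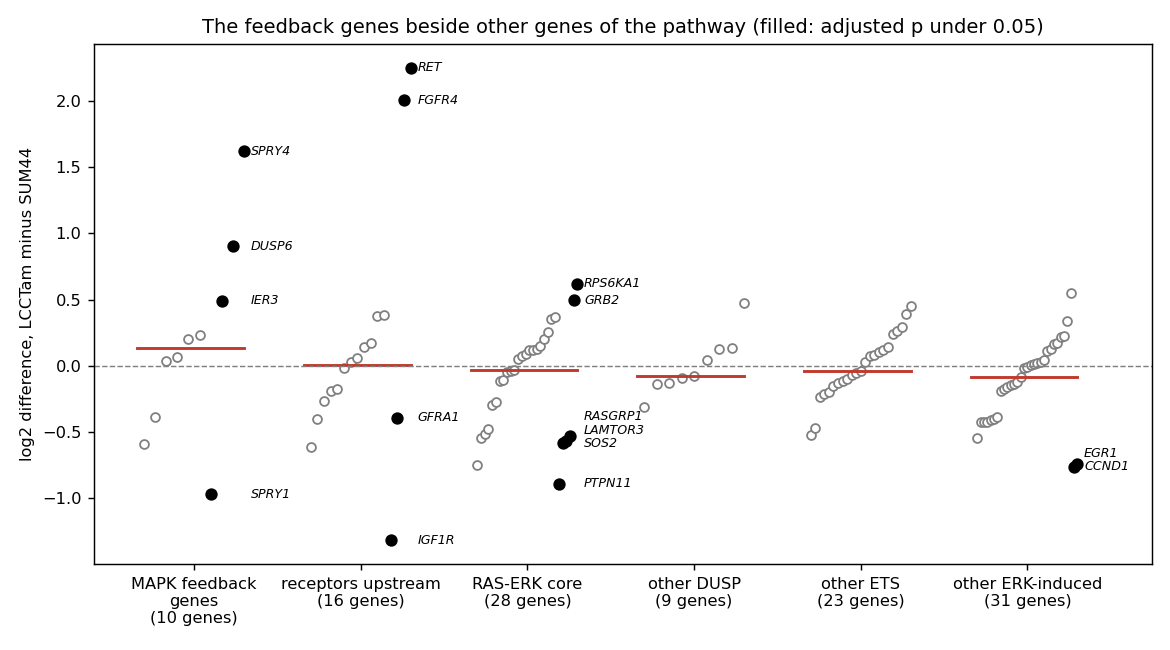
Log2 difference, LCCTam minus SUM44, of each gene in the feedback set and in 5 lists of the same pathway; filled points passed an adjusted p of 0.05 and are named, and the line is the list's median. Differences above 1 belong to SPRY4, FGFR4 and RET, and the medians of the 6 groups lie between -0.08 and 0.14.

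The genes whose pattern over the 6 arrays lay closest to SPRY4, DUSP6 and SPRY1 were found by the root mean square distance between log2 values, each gene centred on its own mean, among 11953 genes. Closest to SPRY4 were ALDH3B1, an aldehyde dehydrogenase gene, at a distance of 0.13, ARMCX6 at 0.15 and CELSR2, an adhesion receptor of the cadherin superfamily, at 0.17. ALDH3B1 was at 9.10, 9.30 and 8.89 in LCCTam, against 7.47, 7.53 and 7.58 in SUM44. Closest to DUSP6 were APOA1, which encodes an apolipoprotein, at 0.09, and the kinase gene TNIK and DOCK1, an activator of RAC, both at 0.10. Closest to SPRY1 were WFS1, RAI2 and NR3C2, the mineralocorticoid receptor gene, each at 0.10. NR3C2 was at 6.27, 6.30 and 5.63 in LCCTam, against 7.31, 6.99 and 6.90 in SUM44. WFS1 and NR3C2 passed without 1 of the 6 arrays each, RAI2 without 4, and the other 6 named neighbours in all 6 fits. With 2 lines, a gene lies close by this distance when its line difference is of like size and its spread within each line is small or similar.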

How the data were processed

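Total RNA of LCCTam and SUM44 cells was labelled with biotin by the one-cycle Affymetrix procedure, per the labels, and read on 1-colour oligonucleotide arrays. The authors deposited log2 expression values made with RMA, which corrects background, normalizes arrays to each other and summarizes probes, per the submitters' processing notes; the RMA version is not given in the sources used here. Scanner intensities were not used here.

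Of 22283 probe sets, 68 were controls and 20114 had a platform annotation; 19071 carried 1 gene symbol and 1043 several. Symbols were updated through Entrez identifiers with RefSeq (GRCh38.p14) for 19059 probe sets, and 19065 named probe sets were analysed. Each of 11963 genes was represented by its brightest probe set, by the mean over the 6 arrays. LCCTam and SUM44 (3 arrays each) were compared with limma 3.58.1 in R 4.3.3 (lmFit, eBayes) without covariates, with Benjamini-Hochberg adjustment over all genes or all named probe sets. The number of arrays limits the precision. The procedure was tested on simulated data. The 10 genes and the lists were chosen with earlier results of these data known. From each list the text names the passing genes with the largest differences, at most 4, or, where 0 passed, the gene with the largest difference, and GRB2 and RASGRP1 were named after their values were seen. For the 3 passing genes of the 10 with the largest differences it names the 3 other genes nearest in pattern. Alternatives were the mean of a gene's probe sets, no _x_at or _s_at probe sets, no probe sets in the dimmest 25%, quantile normalization, subtracted array medians, array weights, an intensity trend with a robust prior, and each array left out in turn. The array weights were 4.02, 0.811 and 0.201 for LCCTam replicates 1, 2 and 3, and 0.637, 2.88 and 0.834 for SUM44 replicates 1, 2 and 3. That fit thus rests mostly on LCCTam replicate 1 and SUM44 replicate 2. A list of 3 further Sprouty and SPRED genes was not analysed here.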

Additional observations from a re-analysis of the deposited data

How the results depend on the processing

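Differences of the 10 genes kept their direction and their side of the threshold in 62 of the 65 values from other processing and in 49 of 60 with 1 array left out. With unequal array weights DUSP4 (0.23) and ETV4 (0.30) passed, and SPRY2 turned to -0.029 (adjusted p = 0.839). With 1 array left out SPRY2 ranged between -0.061 (without LCCTam replicate 2) and 0.10, with -0.0063 without SUM44 replicate 1, and ETV5 between -0.0091 (without SUM44 replicate 1) and 0.15. With 1 array left out SPRY1 ranged between -1.10 and -0.81 and IER3 between 0.45 and 0.55. The number of the 10 genes passing was 2 without _x_at and _s_at probe sets, where 6 genes have a probe set left, and 2 to 4 with 1 array left out. Of their probe sets 2 passed without _x_at and _s_at, 9 with array weights, and 2 to 6 with 1 array left out. Over all genes 598 passed without _x_at and _s_at probe sets, 3844 with array weights, and 259 to 1527 with 1 array left out (353 without LCCTam replicate 1, 401 without LCCTam replicate 2, 1527 without LCCTam replicate 3, 259 without SUM44 replicate 2), against 948 with all arrays. COL3A1 turned to 0.020 without _x_at and _s_at probe sets, and PECAM1 to 0.0027 with the mean of its probe sets, against -0.18. Apart from the settings that remove probe sets or arrays, the cause was not tested. SPRY2 and 1 or more probe sets of SPRED2 and ETV5 were dim, where a change may not be measurable. No paired analysis was possible because the lines share no passage number, and the replicate numbers only name the arrays.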
